A study of Mus musculus with 23 samples.

Results

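The collagen gene family was followed through 23 mouse RNA-seq libraries as 44 genes, each encoding 1 collagen chain, chosen by name from the 35523 genes that the deposited tables cover. Estimated reads were summed over the 224 annotated transcripts of these genes. By the structure of the protein, 11 chains are fibrillar, 9 form networks, 6 are the beaded-filament chains of type VI, 9 are FACIT chains that coat fibrils, 4 are transmembrane, and 5 are anchoring, multiplexin or other chains. The libraries came from pancreatic stellate cells (PSCs), the fibroblast-like cells of the pancreas, and from the tumor organoids with which they shared Matrigel for 3.5 days in medium labelled as reduced or control, sorted apart by flow cytometry. The study compared Egfr KO with Egfr WT PSCs, and the organoids grown with each. Egfr encodes the epidermal growth factor receptor.

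Egfr KO PSCs gave 8 libraries and Egfr WT PSCs gave 4. Parent PSC4 was present as the KO lines A3 and B4 and the WT line Rosa, and each of these 3 lines was grown with each of 3 organoid lines, T69A, T6-LOH and T12-LOH. Parent PSC5 was present as the KO lines C5 and D4 and its own WT line Rosa, grown with T6-LOH alone. Organoids gave 7 libraries from cultures with KO PSCs and 4 from cultures with WT PSCs. For A3 with T69A the PSC library alone was used, and for the other 11 cultures both fractions. The 3 libraries of A3, of B4 or of PSC4 Rosa therefore differ in the organoid partner and not in the line. The labels do not say how Egfr was disrupted, whether a line is 1 clone, or whether libraries came from separate cultures, and p-values then measure only the spread between these libraries.

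Collagen chains wind around each other in threes into a triple helix, are hydroxylated and secreted, and then assemble into fibrils, sheets or filaments. Type I collagen is usually built from the Col1a1 and Col1a2 chains together, and the Col1a1 chain can also assemble with itself alone. The fibrillar collagens I, III and V make up most interstitial matrix, and activated stellate cells are known as its main source in pancreatic tumors. Type IV collagen, built above all from the Col4a1 and Col4a2 chains, is the sheet of the basement membrane, on which epithelial cells sit.

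Libraries held 21823084 to 34828131 estimated reads where they came from PSCs and 23814409 to 34643087 where they came from organoids. The sorted fractions matched their labels. The 16 epithelial markers summed to 34.3 to 196 TPM (a transcript level scaled by transcript length and by library size) in PSCs and to 14020 to 17880 TPM in organoids, and the 16 fibroblast markers to 2604 to 6315 TPM in PSCs and 56.2 to 147.8 TPM in organoids. Egfr transcript was at 14.9 to 80.6 TPM in KO PSCs and at 72.2 to 111 TPM in WT PSCs. The groups overlapped in the D4 library, at 80.6 TPM against 111 TPM in its WT partner. A level summed over the gene does not show whether a transcript still encodes the receptor.

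PSCs carried most of the collagen RNA. The 44 chains summed to 5100 ± 1737 TPM in PSCs (mean ± SD, n = 12), with a range of 2645 to 7740 TPM, and to 212.9 ± 86.7 TPM in organoids (n = 11), with a range of 144.4 to 385.0 TPM. The make-up differed as well. Fibrillar chains held 55.7 to 81.7% of the collagen TPM in PSCs and 0.765 to 2.64% in organoids, whereas the anchoring, multiplexin and other chains held 0.573 to 2.29% in PSCs and 31.9 to 81.8% in organoids. Network chains stood between, at 5.96 to 18.6% in PSCs and 15.7 to 67.1% in organoids. In these sorted bulk samples, fewer cells of a type and less RNA per cell cannot be told apart.

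**Figure D1:**
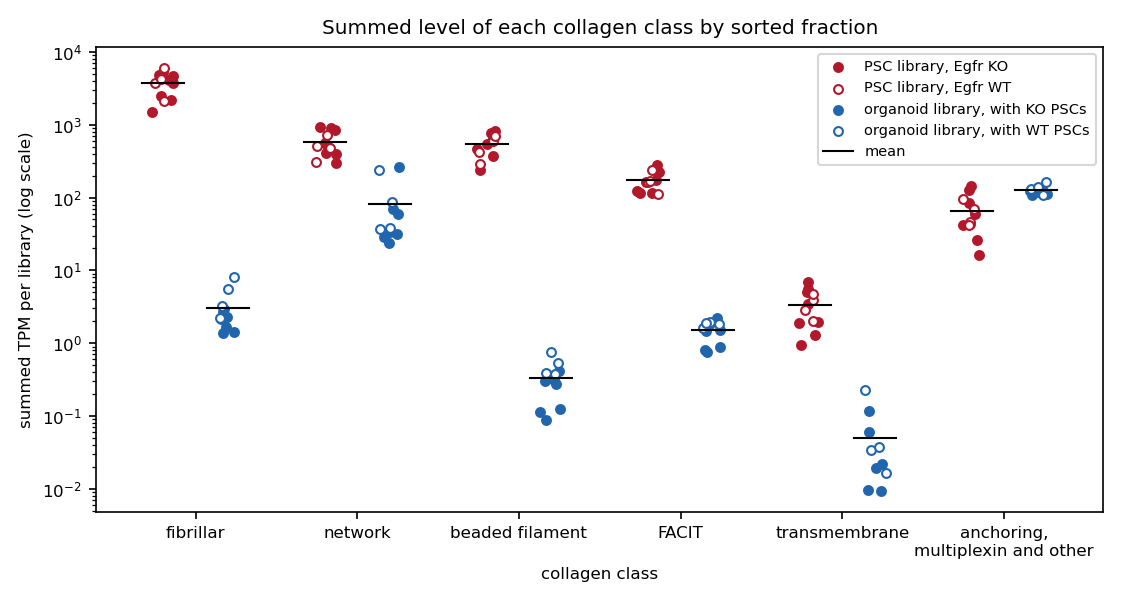
Summed TPM of each collagen class per library on a log axis, with PSC libraries in red and organoid libraries in blue, filled for Egfr KO and open for Egfr WT PSCs, and the mean of each fraction as a line; the 1 organoid library with a transmembrane sum of 0 has no point. Fibrillar sums were 1474 to 5971 TPM in PSCs and 1.38 to 8.04 TPM in organoids, while the anchoring, multiplexin and other class was the one class with the higher mean in organoids.

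In PSCs, 9 chains averaged at least 100 TPM, 18 lay between 1 and 100 TPM, and 17 lay under 1 TPM. Col1a1, the alpha 1 chain of type I collagen, was highest at 1881 ± 607 TPM, followed by Col3a1, the chain of type III collagen, at 990 ± 619 TPM (SD, n = 12 each). Their ranges overlapped, at 992 to 2747 TPM for Col1a1 and 187 to 1924 TPM for Col3a1. Col1a2 (369 ± 354 TPM), the type V chain Col5a2 (354.5 ± 145 TPM) and the type VI chain Col6a1 (336 ± 106 TPM) came next and did not differ beyond their spread. Of these, Col1a2 varied most, between 1.01 and 1183 TPM. The FACIT chain Col16a1 varied least among the 9, between 83.9 and 147.5 TPM.

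In organoids, 1 chain averaged over 100 TPM, 6 lay between 1 and 100 TPM, and 37 lay under 1 TPM, 4 of which had no read in any organoid library. The chain over 100 TPM was Col18a1, a basement membrane multiplexin whose C-terminal fragment is endostatin, at 117 ± 11.5 TPM with a range of 98.7 to 138.6 TPM (SD, n = 11). The next were Col4a1 at 40.7 ± 46.8 TPM and Col4a2 at 32.1 ± 39.3 TPM, whose spread over the organoid lines is described further on. Col7a1, which forms the anchoring fibrils that tie epithelium to stroma, followed at 7.83 ± 6.22 TPM, and about the same level was held by Col4a5, at 6.39 ± 3.37 TPM. Over both fractions, Col13a1, a transmembrane collagen, had no estimated read in any of the 23 libraries. Col2a1, Col9a1, Col9a2 and Col9a3, chains of cartilage collagen, stayed under 1 TPM in every library.

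The 2 fractions were compared gene by gene over the 11 cultures that gave both, with edgeR's quasi-likelihood test on the summed estimated reads and Benjamini-Hochberg adjustment over all 14058 genes tested. Of the 30 collagen genes that passed the filter on low counts, 26 were higher in PSCs and 2 lower at an adjusted p under 0.05, against 37.3% of all tested genes higher and 38.0% lower. The median log2 fold change of PSCs over organoids was 7.20 over these 30 genes and -0.03 over all genes. A gene that passes the filter through 1 fraction alone has to differ, so this count describes where the family is expressed. Col3a1 rose by 12.03 ± 0.60 on the log2 scale (± standard error here and for every fold change below), Col1a1 by 11.65 ± 0.54, and Col6a1 by 11.34 ± 0.40, with adjusted p of 1.02e-09, 5.26e-10 and 5.68e-11. Col5a2 (11.66 ± 0.57), Col1a2 (11.55 ± 0.575), Col11a1 (10.90 ± 0.35), Col12a1 (10.56 ± 0.52), Col6a2 (10.40 ± 0.51) and Col5a3 (9.98 ± 0.30) followed, with adjusted p of at most 9.56e-10. Col4a1 (3.02 ± 0.59, adjusted p = 0.000451) and Col4a2 (2.64 ± 0.49, adjusted p = 0.000262) differed far less. Col6a4, a type VI chain, had 1845 reads over all PSC libraries and none in organoids, which is at least 609-fold higher in PSCs against a floor of 3 counts over the organoid group, and this bound covers counting error only.

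The 2 chains that were lower in PSCs were Col18a1, at a log2 fold change of -2.34 ± 0.17 (adjusted p = 3.25e-08), and Col7a1, at -1.36 ± 0.24 (adjusted p = 0.000148). Col18a1 was at 13.9 to 53.2 TPM in PSCs and at 98.7 to 138.6 TPM in organoids, with no overlap. For Col7a1 the ranges did overlap, at 0.305 to 11.2 TPM in PSCs and 1.19 to 23.4 TPM in organoids. About 50.1% of its TPM in PSCs and 55.8% in organoids lay on a transcript of 525 bases, far shorter than the coding transcript. Col20a1 and Col4a6 passed the filter and did not pass the test, at adjusted p of 0.149 and 0.81.

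**Figure D2:**
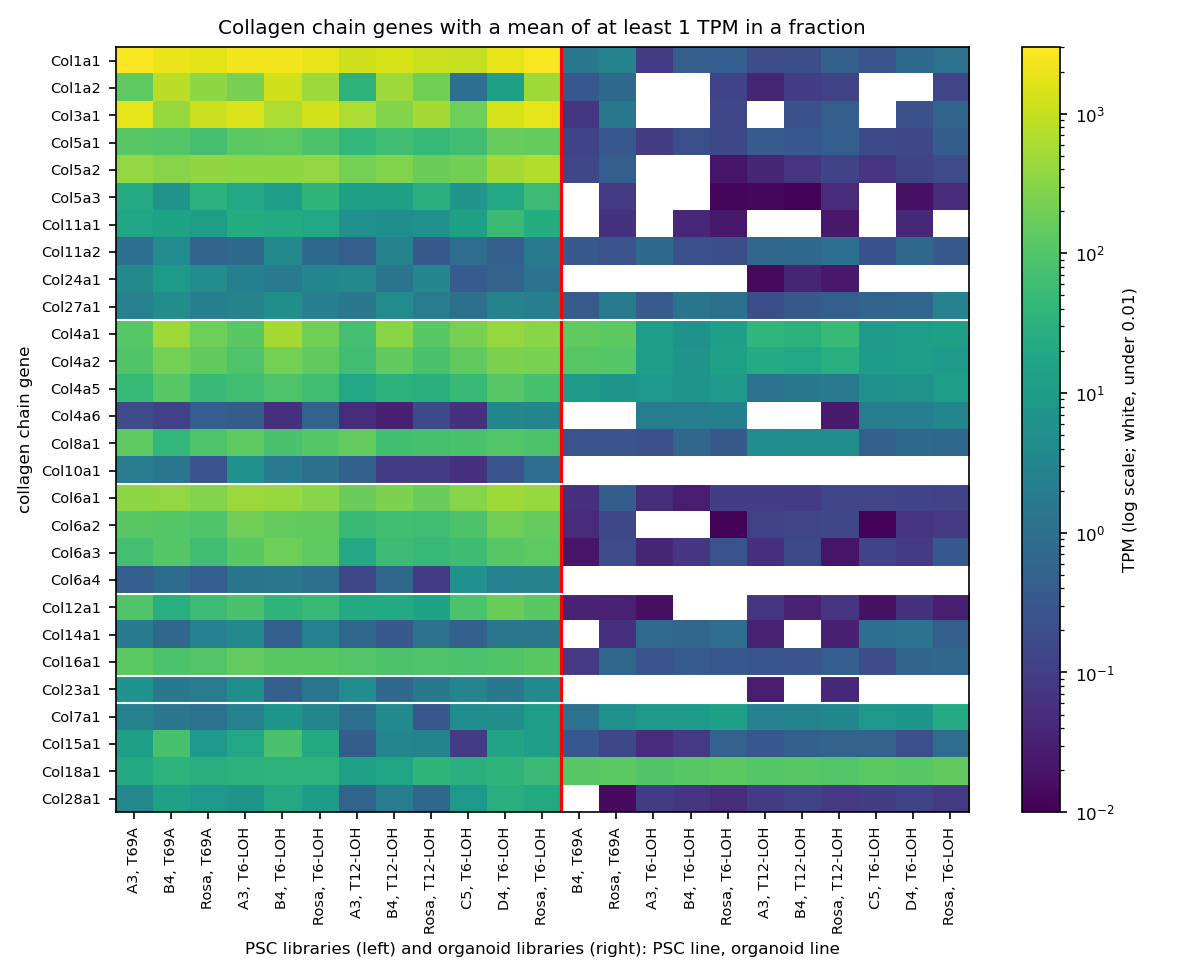
TPM of the 28 collagen chain genes with a mean of at least 1 TPM in a fraction, by library on a log colour scale, with PSC libraries left and organoid libraries right of the red line and white for levels under 0.01 TPM. Col18a1 is bright in both fractions, Col4a1 and Col4a2 are brightest among organoids in the 2 T69A libraries, and Col1a2 is dark in the C5 and D4 PSC libraries.

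Col18a1 is read from 2 start regions on chromosome 10 (minus strand), and the share of each differed between the 2 fractions. The bases before the upstream start are shown because the transcript that begins there carried most Col18a1 TPM in organoids. They are the part of the 250 bases before RefSeq's start site that lies in no GENCODE M21 exon of the gene, at chr10:77166549-77166780 on the mouse build GRCm38.p6, which is not the GRCm39 build of the authors' tables. The downstream region is not shown, because the transcript Col18a1-201 begins at 77113946, upstream of Col18a1-203 at 77113705, so that most of RefSeq's window there is transcribed. Capitals mark matches on either strand to 4 motifs: the CCAAT box, the GC box searched as GGGCGG, the TATA box searched as TATAAA, and the AP-1 motif searched as TGANTCA.
Col18a1 upstream: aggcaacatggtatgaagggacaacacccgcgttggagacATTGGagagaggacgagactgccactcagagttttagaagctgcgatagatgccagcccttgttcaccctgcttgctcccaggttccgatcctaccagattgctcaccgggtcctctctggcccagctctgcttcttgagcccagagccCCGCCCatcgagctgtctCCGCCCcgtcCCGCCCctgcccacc
RefSeq's whole window before this site held 1 CCAAT match, 3 GGGCGG matches and 12 CpG dinucleotides. Among 32817 mouse promoter windows of the same length, 33.8% held CCAAT, 32.7% GGGCGG, 12.4% TATAAA and 6.8% TGANTCA, and the median number of CpG was 6. Windows were found for 35 of the 44 chains (38 windows), of which 13 held CCAAT, 22 GGGCGG, 5 TATAAA and 1 TGANTCA. These matches describe letters in the window and are not shown to be bound.

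The transcript that begins at the upstream Col18a1 site held 99.1 ± 0.44% of the TPM that could be assigned to either region in organoids, with a range of 98.1 to 99.7%, and 59.5 ± 10.7% in PSCs, with a range of 44.2 to 78.4% (SD, n = 11 organoid and 12 PSC libraries). The ranges did not overlap. In TPM, the upstream site gave 6.40 to 25.2 in PSCs and 89.8 to 122 in organoids, while the downstream region gave 2.31 to 16.9 in PSCs and 0.33 to 1.76 in organoids. The 2 short transcripts of 675 and 717 bases belong to neither and were left out of the shares, at 2.01 to 12.8 TPM in PSCs and 8.16 to 16.4 TPM in organoids. Assignment of reads to transcripts of 1 gene is a model estimate, and no test was run on these shares.

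The Col18a1 start regions were also set against the PSC genotype, with no test. The upstream site was at 6.40 to 14.4 TPM, with a median of 11.9, in the 8 KO libraries and at 16.1 to 25.2 TPM, with a median of 22.1, in the 4 WT libraries, without overlap. The share of all transcripts that separate in this way was not counted. The downstream region was at 2.31 to 16.9 TPM in KO and 6.18 to 16.4 TPM in WT libraries, with overlap. Summed epithelial markers were at 34.3 to 196 TPM in KO and 36.8 to 182 TPM in WT PSCs. For the gene as a whole, the log2 fold change of KO over WT was -0.71 ± 0.19 and did not pass over all genes with edgeR (unadjusted p = 0.00408, adjusted p = 0.18). With DESeq2 it passed (adjusted p = 0.0216), and over all 20 alternative settings its adjusted p ran from 0.0216 to 1.

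KO and WT PSCs gave no call in the family. Over the 12 PSC libraries, with co-culture as a block, 0 of 34 tested chains passed in either direction with edgeR, where 0.0213% of all genes passed as higher and 0.0425% as lower. Their median log2 fold change was 0.08, and 0.005 over all genes. At an unadjusted p under 0.05 there were 5 chains, against 1937 of all 14107 genes. DESeq2 called 2 chains, both lower, which were Col18a1 and Col5a3, where it called 577 of 15776 genes (3.66%), 325 of them lower. Col5a3, a type V chain, had a log2 fold change of -1.44 ± 0.36 (edgeR adjusted p = 0.166, with 0.00533 in DESeq2 and 0.00533 to 1 over the alternatives). It was at 7.01 to 23.6 TPM in KO and 28.6 to 56.1 TPM in WT PSCs, without overlap. The share of all genes that separate KO from WT PSCs in this way was not counted. The other chains under 0.05 before adjustment were Col20a1 (1.67 ± 0.61), Col25a1 (-2.75 ± 1.005) and Col24a1 (-0.69 ± 0.26), with adjusted p of 0.294, 0.294 and 0.306. The 10 chains that did not pass the filter were Col2a1, Col4a3, Col4a4, Col6a6, Col9a1, Col9a2, Col19a1, Col22a1, Col13a1 and Col26a1, each under 1 TPM in every PSC library.

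Col1a2 levels were spread far more widely over the KO lines than those of its partner chain Col1a1. In A3, Col1a2 was at 133, 230 and 34.8 TPM with T69A, T6-LOH and T12-LOH, and in B4 at 816, 1183 and 480 TPM, against 355, 483 and 203 TPM in PSC4 Rosa. A3 lay below and B4 above the WT line with each partner. In the PSC5 lines with T6-LOH, Col1a2 was at 1.01 TPM in C5 and 13.2 TPM in D4, against 494 TPM in PSC5 Rosa. These 2 levels rest on 91 and 889 estimated reads, against 38530 in PSC5 Rosa, so they are far above what a count of 0 allows.

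Col1a1 was at 2747, 2431 and 1212 TPM in A3 and at 2097, 2381 and 1371 TPM in B4, against 1752, 1936 and 1094 TPM in PSC4 Rosa, in the same order of partners. In PSC5 it was at 992 TPM in C5 and 1926 TPM in D4, against 2630 TPM in Rosa. The ratio of Col1a1 to Col1a2 TPM was therefore 10.6 to 34.8 in A3, 2.01 to 2.85 in B4, 981 in C5 and 146 in D4, against 4.01 to 5.39 in the 4 WT libraries. The ratio in B4 lay below, and in the other 3 KO lines above, all 4 WT values.

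Of the 250 bases before RefSeq's Col1a2 start site, the stretch outside all GENCODE M21 exons of the gene, chr6:4505370-4505492 (plus strand, RefSeq, GRCm38.p6), is given because Col1a2 lay below the WT line in A3 and above it in B4. Capitals mark the same 4 motifs, of which the stretch held 2 GGGCGG. The 1 CCAAT match of the whole window lies in the annotated first exon of Col1a2-201, the transcript with most of the gene's TPM in PSCs, and is not shown.
Col1a2 promoter: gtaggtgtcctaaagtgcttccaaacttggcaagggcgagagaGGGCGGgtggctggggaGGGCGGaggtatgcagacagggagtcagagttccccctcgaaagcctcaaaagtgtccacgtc

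Over all KO lines together, the log2 fold change of Col1a2 in KO PSCs was -1.37 ± 1.60 (adjusted p = 0.713). Without the PSC5 Rosa library, after which PSC5 no longer contributes to the comparison, it was 0.33. The difference between the KO effects of the 2 parents, PSC5 minus PSC4, was -6.49 ± 2.01 for Col1a2 (unadjusted p = 0.0115, adjusted p = 0.923). That test rests on 1 WT library of PSC5, and 0.0% of 14107 genes passed it in either direction. None of the 34 chains passed, 4 were under 0.05 before adjustment, and DESeq2 called 0. For Col10a1, a network chain of hypertrophic cartilage, that difference was -4.48 ± 1.33 and for Col1a1 -1.09 ± 0.43, with adjusted p of 0.906 and 0.985.

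**Figure D3:**
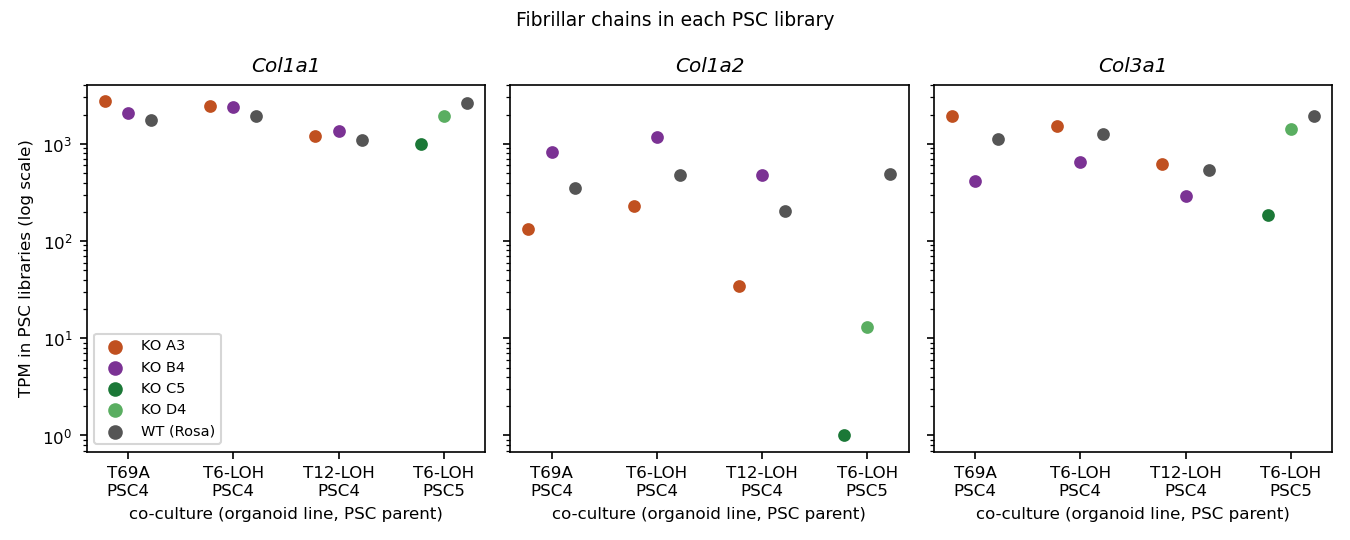
TPM of Col1a1, Col1a2 and Col3a1 in each of the 12 PSC libraries on a log axis, by co-culture, with KO lines left of the WT line (grey). Col1a1 stayed between 992 and 2747 TPM, whereas Col1a2 ran from 1.01 TPM in C5 to 1183 TPM in B4 and Col3a1 was lowest in C5 and B4.

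Line A3 was compared with PSC4 Rosa over 3 organoid partners each. Of 34 chains tested, 3 were higher and 3 lower in A3, against 3.35% of all genes higher and 4.06% lower, with a median log2 fold change of 0.08 over the chains and 0.0 over all genes. Col1a2 fell by 1.65 ± 0.295 on the log2 scale (adjusted p = 0.0305), and Col4a1 and Col4a2 fell by 0.65 ± 0.06 and 0.47 ± 0.07 (adjusted p = 0.00239 and 0.0108). Col4a1 was at 112, 119 and 70.8 TPM in A3 and at 186, 200 and 117 TPM in PSC4 Rosa with T69A, T6-LOH and T12-LOH. Col10a1 (2.63 ± 0.40), the transmembrane chain Col23a1 (1.72 ± 0.22) and the corneal network chain Col8a2 (1.46 ± 0.35) rose, with adjusted p of 0.0111, 0.00711 and 0.0475, all at low levels of at most 6.47 TPM. Col1a1 (0.37 ± 0.12, adjusted p = 0.111) and Col3a1 (0.47 ± 0.20, adjusted p = 0.223) did not pass.

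Leaving out single libraries gave 1 to 7 calls, with 3 without A3 with T69A, 2 without A3 with T6-LOH, and 1 without Rosa with either of these partners. Col4a1 passed in 13 of 13 alternatives, Col23a1 in 11, Col10a1 in 10, Col4a2 in 9, Col1a2 in 5 and Col8a2 in 1. The 16 fibroblast markers summed to 4342 to 5273 TPM in A3, 2604 to 4096 TPM in B4 and 5160 to 6315 TPM in PSC4 Rosa, and 2 of 14 tested were lower in A3. Their part in the result was not tested.

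Line B4 differed from PSC4 Rosa in more chains, as it did across the genome. Of the 34 tested, 11 were higher and 10 lower, against 25.2% of all genes higher and 25.0% lower, so the share of changed chains was near the background. The median log2 fold change was 0.27 over the chains and 0.01 over all genes. Leaving out PSC4 Rosa with T69A left 12 calls and leaving out PSC4 Rosa with T6-LOH left 13. Of the fibroblast markers, 1 of 14 tested was higher and 7 were lower in B4, and their part in the result was not tested. Set directly against A3, B4 had 11 chains higher and 9 lower, where 24.4% of all genes were higher and 24.6% lower, with a median of -0.07 over the chains and 0.01 over all genes.

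The type IV chains Col4a1 and Col4a2 moved in opposite directions in the 2 lines. The type IV chain Col4a6, at 0.56 TPM or less, lay below PSC4 Rosa in both lines with every partner. In B4, Col4a1 was at 482, 540 and 320 TPM, against 186, 200 and 117 TPM in PSC4 Rosa, a log2 fold change of 1.39 ± 0.06 (adjusted p = 1.42e-05). Col4a2 was at 211, 213 and 138 TPM, against 140, 137 and 80.9 TPM, a log2 fold change of 0.55 ± 0.07 (adjusted p = 0.000499). Both chains were higher in B4 with all 3 partners. The ratio of Col4a1 to Col4a2 TPM was 2.28 to 2.54 in B4 and 1.10 to 1.26 in A3, against 1.33 to 1.46 in the WT libraries of both parents, so the pair did not move in step. Between the lines, Col4a1 was 2.04 ± 0.07 and Col4a2 1.02 ± 0.07 higher in B4 than in A3 on the log2 scale (adjusted p = 3.79e-06 and 6.16e-05).

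The Col4a1 and Col4a2 genes lie head to head on chromosome 8 and are known to share 1 promoter. In RefSeq (GRCm38.p6) the Col4a2 start is at 11312805 on the plus strand and the Col4a1 start at 11312826 on the minus strand, so that the annotated 5′ ends overlap by 22 bases.

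Among fibrillar chains in B4, Col3a1 fell and Col1a2 rose. Col3a1 was at 419, 646 and 292 TPM in B4, against 1114, 1258 and 542 TPM in PSC4 Rosa (log2 -1.17 ± 0.21, adjusted p = 0.00346), lower with all 3 partners. Col1a2 had a log2 fold change of 1.13 ± 0.29 (adjusted p = 0.0198), and passed in 7 of 13 alternatives. Col1a1 did not pass in B4 (0.18 ± 0.12, adjusted p = 0.261). The ratio of Col3a1 to Col1a1 TPM was 0.200 to 0.271 in B4, 0.515 to 0.700 in A3, 0.189 in C5 and 0.730 in D4, against 0.495 to 0.731 in WT libraries. Low ratios were thus found in 2 of the 4 KO lines, 1 from each parent. Lower-expressed fibrillar chains followed neither, with Col5a3 lower in B4 (-1.70 ± 0.32, adjusted p = 0.00706), and Col11a2, a minor chain of type XI collagen, and Col27a1 higher (2.46 ± 0.21 and 1.12 ± 0.16, adjusted p = 0.000107 and 0.000754).

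The multiplexin Col15a1, a basement membrane collagen like Col18a1, was at 75.5, 80.0 and 3.11 TPM in B4 with T69A, T6-LOH and T12-LOH, against 8.29, 21.0 and 2.98 TPM in PSC4 Rosa. The groups overlapped, since B4 with T12-LOH was below Rosa with the other partners, and the fold change within partners was 1.95 ± 0.42 (log2, adjusted p = 0.0127). Col28a1, a von Willebrand factor A domain chain, rose by 1.00 ± 0.16 (adjusted p = 0.00166). The FACIT chain Col20a1 rose (2.59 ± 0.38, adjusted p = 0.000914), and the FACIT chains Col14a1 and Col16a1 fell by 2.29 ± 0.35 and 0.29 ± 0.08 (adjusted p = 0.00125 and 0.0204). Of the type VI chains, Col6a1 (0.36 ± 0.11) and Col6a4 (1.19 ± 0.40) rose and Col6a5 fell by 2.08 ± 0.65, with adjusted p of 0.0268, 0.0381 and 0.0298. The network chains Col4a6, Col8a1 and Col8a2 fell by 2.60 ± 0.46, 0.68 ± 0.21 and 1.51 ± 0.44, and Col10a1 rose by 1.14 ± 0.41, with adjusted p of 0.00236, 0.0408, 0.0219 and 0.049.

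Transmembrane chains were low in all PSCs, and 2 of the 3 tested fell in B4. Col23a1 was at 1.54, 0.464 and 0.80 TPM in B4 and 6.47, 5.26 and 4.82 TPM in A3, against 2.03, 1.41 and 1.60 TPM in PSC4 Rosa, and fell by 1.04 ± 0.24 (log2, adjusted p = 0.00832) in B4. Col25a1, a transmembrane collagen first described in neurons, had no read in the 3 B4 libraries, against 222 reads over the 3 PSC4 Rosa libraries and 37 over the 3 A3 libraries. Against a floor of 3 counts over the B4 group, Col25a1 was at least 61.8-fold lower in B4 than in PSC4 Rosa (adjusted p = 0.00172).

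Set directly against A3, and beside Col4a1 and Col4a2, the fibrillar chains Col1a2 (2.78 ± 0.31), Col11a2 (1.89 ± 0.21) and Col27a1 (0.998 ± 0.157) were higher in B4 on the log2 scale and Col3a1 (-1.64 ± 0.21) lower, with adjusted p of at most 0.00148. Col15a1 (2.40 ± 0.42), Col20a1 (1.87 ± 0.36), Col28a1 (1.60 ± 0.17), the keratinocyte hemidesmosome chain Col17a1 (1.15 ± 0.36), Col6a3 (0.85 ± 0.22) and Col4a5 (0.84 ± 0.20) were also higher, with adjusted p of at most 0.0313. Col8a2 (-2.97 ± 0.41), Col23a1 (-2.76 ± 0.24), Col14a1 (-2.21 ± 0.35), Col4a6 (-1.60 ± 0.48), Col10a1 (-1.49 ± 0.37), Col8a1 (-1.22 ± 0.22) and Col16a1 (-0.47 ± 0.08) were lower, with adjusted p of at most 0.0261. Col25a1 was at least 12.0-fold lower in B4 than in A3 against the same floor (adjusted p = 0.011). Of these, Col17a1 passed in 4 of 13 alternatives and Col6a3 in 8. Of the calls in B4 against PSC4 Rosa, Col10a1 passed in 4 of 13 and Col8a1 in 6.

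**Figure D4:**
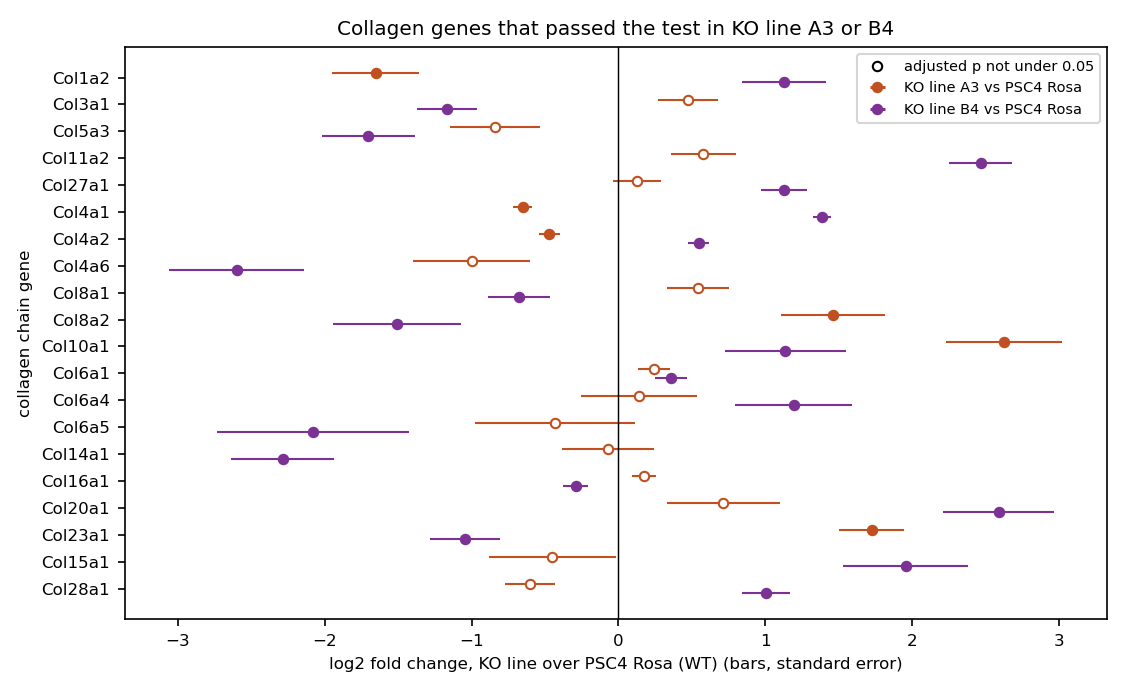
Log2 fold change with standard error of 20 collagen genes that passed in A3 or B4, each over PSC4 Rosa, filled where the adjusted p was under 0.05 and open where it was not; Col25a1, with no read in B4, is left out. Col4a1, Col4a2 and Col1a2 lay below 0 in A3 and above 0 in B4, and both lines are set against the same 3 PSC4 Rosa libraries.

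The collagens of PSC4 lines that differed with the organoid partner T12-LOH were all lower. With T12-LOH as partner in place of T6-LOH, 0 of 34 tested chains were higher and 21 lower, against 8.53% of all genes higher and 9.25% lower. The median log2 fold change was -0.90 over the chains and 0.006 over all genes. The 44 chains together were at 2834, 3577 and 2853 TPM in A3, B4 and Rosa with T12-LOH, against 6208, 6750 and 5551 TPM with T6-LOH. In every line, 24 chains shared by all 3 lines were at 1 TPM or more with at least 1 of T12-LOH and T6-LOH. Of these, 20 were lower with T12-LOH in 3 of 3 lines and 0 were higher in 3 of 3. The 4 others, Col18a1, Col24a1, Col5a3 and Col8a1, were lower in 2 of 3 lines. The share of all genes that were lower in 3 of 3 lines was not counted. Leaving out A3 with T12-LOH left 13 calls, and leaving out any other library left up to 22.

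Fibrillar chains fell with T12-LOH by moderate amounts. Col1a1 was at 1212, 1371 and 1094 TPM in A3, B4 and Rosa with T12-LOH, against 2431, 2381 and 1936 TPM with T6-LOH (log2 -0.81 ± 0.12, adjusted p = 0.00482). Every T12-LOH value lay below every T6-LOH value. Col1a2 fell by 1.66 ± 0.295 (adjusted p = 0.0164), Col3a1 by 1.16 ± 0.21 (adjusted p = 0.0124) and Col11a1, the fibril-nucleating type XI chain often used as a marker of activated tumor fibroblasts, by 1.84 ± 0.10 (adjusted p = 0.000197). Col5a1 and Col5a2 also passed as lower, which makes 6 of the 10 fibrillar chains tested.

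All 5 tested type VI chains fell. Col6a3, the longest of them, was at 19.8, 57.6 and 47.2 TPM in A3, B4 and Rosa with T12-LOH, against 119.9, 184.6 and 129.0 TPM with T6-LOH (log2 -1.78 ± 0.23, adjusted p = 0.00608), without overlap. Col6a1 fell by 0.96 ± 0.11 and Col6a2 by 1.33 ± 0.15 (adjusted p = 0.00197 and 0.00266), and the low-level chains Col6a4 and Col6a5 fell by 2.40 ± 0.41 and 2.88 ± 0.60 (adjusted p = 0.00856 and 0.0165). Network chains fell less at high level, with Col4a1 and Col4a2 at -0.72 ± 0.06 and -0.58 ± 0.07 (adjusted p = 0.000871 and 0.00235). Among the low network chains, Col10a1 fell by 3.62 ± 0.42 and Col4a6 by 1.92 ± 0.45 (adjusted p = 0.002 and 0.0249).

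Col15a1 and Col28a1, both of the anchoring, multiplexin and other class, also fell far. Col15a1 was at 0.413, 3.11 and 2.98 TPM in A3, B4 and Rosa with T12-LOH, against 18.0, 80.0 and 21.0 TPM with T6-LOH (log2 -4.42 ± 0.47, adjusted p = 0.00449). Col28a1 was at 0.594, 2.13 and 0.694 TPM with T12-LOH, against 6.94, 20.1 and 9.91 TPM with T6-LOH (log2 -3.35 ± 0.18, adjusted p = 0.000197). Neither gene's groups overlapped. Of the FACIT chains, Col14a1 and Col16a1 fell by 1.47 ± 0.34 and 0.33 ± 0.08 (adjusted p = 0.0247 and 0.0327), the second between 88.7 and 100.3 TPM with T12-LOH and between 117.0 and 147.5 TPM with T6-LOH. Col14a1 passed in 11 of 13 alternatives and Col16a1 in 6 of 13. Col18a1 did not pass (-0.83 ± 0.32, adjusted p = 0.142). In the same libraries, 4 of 14 tested fibroblast markers were higher and 6 lower with T12-LOH, their sum was 4041 to 6315 TPM with T12-LOH and 4096 to 5317 TPM with T6-LOH, and their part in the result was not tested.

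T69A in place of T6-LOH was a smaller step. None of 34 chains was higher and 2 were lower, against 2.85% of all genes higher and 1.45% lower, with a median of -0.28 over the chains and 0.003 over all genes. The 2 were Col11a1 (-0.53 ± 0.09, adjusted p = 0.0341) and Col6a5 (-2.68 ± 0.57, adjusted p = 0.0454). Leaving out single libraries gave 0 to 4 calls, with 0 without Rosa or either KO line on T69A or T6-LOH. DESeq2 called 1 chain higher and 7 lower, where it called 7.88% of 14412 genes, 645 higher and 491 lower. Col6a3 was at 70.1, 105.7 and 62.6 TPM in A3, B4 and Rosa with T69A, against 119.9, 184.6 and 129.0 TPM with T6-LOH, without overlap, and did not pass (-0.92 ± 0.22, adjusted p = 0.0745). The epithelial markers summed to 146 to 196 TPM in the PSC libraries with T69A and to 63.1 to 111 TPM with T6-LOH, and their part in the result was not tested. Both comparisons share the 3 T6-LOH libraries.

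**Figure D5:**
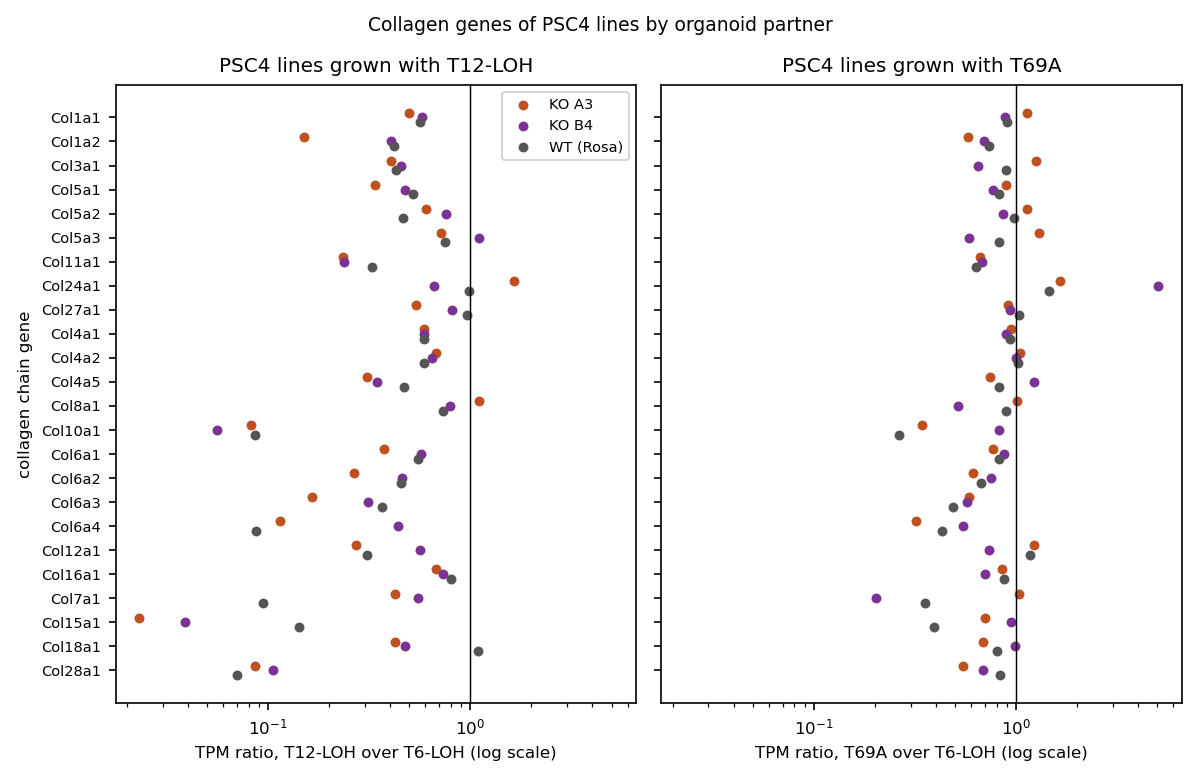
Ratio of TPM in PSC4 lines grown with T12-LOH (left) or T69A (right) over the same line grown with T6-LOH, on a log axis, for 24 collagen genes, with 1 point per line. With T12-LOH, 20 of the 24 genes lay below 1 in all 3 lines, and Col15a1, Col28a1 and Col10a1 lay furthest left. With T69A the median ratio was 0.825 to 0.869 in the 3 lines, taken over the 26 or 27 chains at 1 TPM or more in either library of a pair.

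Genes that make, process or degrade collagen were counted from 8 lists in the T12-LOH comparison, in which 8.53% of all genes were higher and 9.25% lower. Of 14 tested enzymes of hydroxylation and glycosylation 0 passed. Of 14 tested genes of propeptide processing and fibril assembly 6 fell and 2 rose, among them Adamts2, the procollagen N-proteinase (-1.29 ± 0.07, adjusted p = 0.000197), Fn1, fibronectin (-1.57 ± 0.11, adjusted p = 0.000373), and Bgn, biglycan (-0.82 ± 0.10, adjusted p = 0.00227). Of 5 cross-linking oxidases 2 fell, Loxl4 (-1.17 ± 0.08, adjusted p = 0.000398) and Loxl3 (-1.03 ± 0.11, adjusted p = 0.00165). Of 10 receptors 5 fell, among them Itga11, the integrin chain for fibrillar collagen (-2.87 ± 0.36, adjusted p = 0.00272), and of 14 basement membrane partners 7 fell, among them the laminin chain Lama2 (-1.91 ± 0.145, adjusted p = 0.000682). Of 15 chaperone and secretion genes 3 fell and 1 rose, and of 19 regulators 2 fell and 2 rose.

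Of 8 tested collagenases, 2 were higher and 0 lower with T12-LOH, against the same 8.53% and 9.25% of all genes. Mmp13, the main interstitial collagenase of rodents, was at 1020, 303 and 712 TPM in A3, B4 and Rosa with T12-LOH, against 55.4, 52.0 and 140 TPM with T6-LOH (log2 3.10 ± 0.41, adjusted p = 0.00843), without overlap. Mmp9 rose by 1.30 ± 0.345 (adjusted p = 0.0463). The libraries with T69A had Mmp13 at 331, 210 and 560 TPM in A3, B4 and Rosa, and 0 of 8 collagenases passed in that comparison. Organoids of the T12-LOH line held Mmp13 as well, at 244, 357 and 410 TPM with A3, B4 and Rosa, against 3.99, 9.84 and 11.0 TPM in T6-LOH organoids. Summed epithelial markers in the PSC libraries were at 34.3 to 67.5 TPM with T12-LOH and 63.1 to 111 TPM with T6-LOH, and the part of organoid RNA was not tested. In the KO comparison of PSCs, 0 genes of each of the 8 lists passed. In B4 against PSC4 Rosa each of the 8 lists had calls in both directions, where 25.2% of all genes were higher and 25.0% lower. The regulators were uneven, with 11 of 19 higher, among them Foxf1 at 2.36 ± 0.18 (adjusted p = 8.9e-05), and 2 lower.

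PSC5 and PSC4 lines could be compared with T6-LOH alone, over 3 libraries each. With edgeR 0 of 33 chains passed in either direction, where 0.0145% of all genes were higher and 0.0% lower in PSC5. The median log2 fold change was -0.13 over the chains and -0.002 over all genes. Before adjustment 5 chains were under 0.05, against 1735 of all 13799 genes. DESeq2 called 2 chains higher and 3 lower, where it called 4.18% of 14441 genes, 370 higher and 234 lower. Col12a1, a FACIT chain of tendon and tumor stroma, was at 85.3, 176.6 and 120.6 TPM in C5, D4 and PSC5 Rosa, against 79.6, 39.1 and 48.3 TPM in A3, B4 and PSC4 Rosa (log2 1.19 ± 0.36, adjusted p = 0.341). Col6a4 was at 5.97, 2.68 and 2.79 TPM in the PSC5 lines and at 1.33, 1.57 and 1.03 TPM in the PSC4 lines (log2 1.42 ± 0.33, adjusted p = 0.27). Col24a1, a fibrillar chain, was at 0.367, 0.564 and 1.24 TPM in the PSC5 lines and at 2.33, 1.91 and 3.43 TPM in the PSC4 lines (log2 -1.86 ± 0.35, adjusted p = 0.232). For all 3 genes, which were chosen after their values were seen, the PSC5 and PSC4 values did not overlap. How many of all genes separate in this way was not counted. DESeq2 also called Col1a2 and Col10a1 as lower. Col1a2 overlapped, at 1.01, 13.2 and 494 TPM in the PSC5 lines against 230, 1183 and 483 TPM in the PSC4 lines. Col10a1 did not, at 0.059, 0.272 and 0.901 TPM against 6.09, 1.70 and 1.08 TPM.

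Within PSC5, C5 was the line with the lowest collagen sum. Its 44 chains summed to 2645 TPM, against 7740 TPM in PSC5 Rosa, and D4 stood between at 6185 TPM. Of 27 chains at 1 TPM or more in either library, 26 were lower in C5 than in PSC5 Rosa, with a median ratio of 0.497, and 13 of 27 were lower in D4, with a median ratio of 1.04. Each is a comparison of 2 libraries with no replicate check, and the share of all genes that were lower was not counted for either pair. Col3a1 was at 187 TPM in C5 and 1406 TPM in D4, against 1923 TPM in PSC5 Rosa, and Col15a1 at 0.0926 TPM in C5 and 15.5 TPM in D4, against 11.0 TPM. Col11a1 was at 13 TPM in C5 and 55.0 TPM in D4, against 24.2 TPM.

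Organoid lines differed in type IV collagen. Col4a1 was at 138 and 123 TPM in T69A organoids (with B4 and with Rosa), at 39.6, 33.9 and 49.7 TPM in T12-LOH organoids (with A3, B4 and Rosa), and at 11.8, 6.24 and 12.4 TPM in T6-LOH organoids with the same PSC4 lines. The 3 organoid lines did not overlap. The log2 fold change over T6-LOH was 3.79 ± 0.25 in T69A (adjusted p = 0.000395) and 1.97 ± 0.215 in T12-LOH (adjusted p = 0.00139). Col4a2 followed, at 3.57 ± 0.20 and 1.09 ± 0.165 (adjusted p = 7.11e-05 and 0.0025). Over the 22 chains tested, 7 were higher and 4 lower in T12-LOH, against 31.2% and 30.8% of all genes, and 9 were higher and 3 lower in T69A, against 25.3% and 26.0%, so the share of changed chains was near the background.

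The X-linked type IV chains went the other way. Col4a6 was at 2.04 to 2.33 TPM in T6-LOH organoids with PSC4, had 889 reads there, and had no read in T69A organoids, which is at least 156-fold lower in T69A against a floor of 3 counts over that group (adjusted p = 2.75e-05). In T12-LOH organoids it had 3 reads over 3 libraries (adjusted p = 4.52e-06). Col4a5, which lies next to Col4a6, was at 1.13, 1.57 and 1.81 TPM in T12-LOH organoids, against 8.40, 7.93 and 8.59 TPM in T6-LOH (log2 -2.37 ± 0.115, adjusted p = 1.33e-07), while in T69A it was at 8.66 and 7.58 TPM. The 2 neighbours were thus both low in T12-LOH, and Col4a6 alone was low in T69A.

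Other chains marked single organoid lines. Col8a1, a short-chain network collagen, was at 4.71, 5.08 and 5.21 TPM in T12-LOH organoids with A3, B4 and Rosa, against 0.217, 0.651 and 0.340 TPM in T6-LOH (log2 3.63 ± 0.25, adjusted p = 3.54e-06). The FACIT chain Col14a1 was at 0.643 to 0.889 TPM in T6-LOH organoids with PSC4 lines and at 0.0563 TPM or less in both other lines (log2 -4.99 ± 0.54 in T12-LOH and -4.12 ± 0.61 in T69A, adjusted p = 2.45e-05 and 0.000372). Col7a1 was lower in T12-LOH (-1.56 ± 0.40, adjusted p = 0.0277) and passed in 7 of 12 alternatives. The FACIT chain Col20a1 was higher in T12-LOH (1.00 ± 0.37, adjusted p = 0.0377) and T69A (1.13 ± 0.43, adjusted p = 0.0488, passing in 4 of 12 alternatives). By estimated reads Col16a1 was lower in T69A (-1.52 ± 0.52, adjusted p = 0.0325, passing in 8 of 12 alternatives), with 12 and 5 reads against 24 to 36 in T6-LOH. In TPM its T69A values, 0.647 with Rosa and 0.0794 with B4, lay on both sides of the T6-LOH values of 0.259 to 0.397. Col5a2 (5.08 ± 0.73), Col6a2 (4.10 ± 1.10), Col3a1 (2.79 ± 0.615), Col1a2 (2.75 ± 0.80), Col1a1 (2.64 ± 0.31) and Col6a1 (1.86 ± 0.65, passing in 3 of 11 alternatives) passed as higher in T69A, and Col6a2 (4.502 ± 0.964), Col5a2 (3.03 ± 0.78) and Col5a1 (1.24 ± 0.39) in T12-LOH, with adjusted p of at most 0.0369 and all at levels of at most 2.77 TPM. Several of these folds are against almost no reads, so their size is uncertain. In T6-LOH organoids with A3, B4 and Rosa, Col6a2 had 0, 0 and 1 reads, Col5a2 0, 0 and 3, Col1a2 0, 0 and 15, and Col3a1 1, 0 and 18. Col6a2 itself had 3 and 10 reads in T69A and 8 to 10 in T12-LOH. Fibroblast markers without S100a4, which organoids hold at 54.7 to 146 TPM, summed to 1.87 and 5.39 TPM in T69A, 5.66 to 11.4 TPM in T12-LOH and 0.70 to 1.77 TPM in T6-LOH organoids with PSC4 (S100a4 was set aside after its values were seen), and the part of PSC RNA in these differences was not tested.

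Organoids grown with KO PSCs differed from those grown with WT PSCs in 4 of 19 tested chains, all lower, where 6.05% of all genes were lower and 4.28% higher. The median log2 fold change was -0.82 over the 19 chains and -0.01 over all genes. Col1a1 (-1.45 ± 0.28, adjusted p = 0.0128), Col5a2 (-1.53 ± 0.375, adjusted p = 0.0269) and Col3a1 (-2.74 ± 0.68, adjusted p = 0.0355) are chains that PSCs hold at high level. Organoids held them at low levels. Col3a1 rested on 0 to 24 estimated reads per library with KO PSCs and 18 to 76 with WT PSCs. It passed the filter on low counts mainly through the WT group, so its call and fold change carry that selection. Col3a1 was at 0 to 0.230 TPM with KO and 0.148 to 1.58 TPM with WT PSCs, and Col5a2 at 0 to 0.149 TPM and 0.0208 to 0.453 TPM, both with overlap. Col1a1 passed in 12 of 18 alternatives and Col3a1 in 6 of 17. Col1a1 was at 0.0936 to 1.55 TPM, with a median of 0.250, in the 7 organoid libraries with KO PSCs and at 0.434 to 2.77 TPM in the 4 with WT PSCs, with overlap. Set against the PSC library of the same culture, these levels were 0.00385 to 0.0738% with KO and 0.0224 to 0.158% with WT PSCs.

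Of the 16 fibroblast markers, 13 had a lower mean TPM in organoids with KO than with WT PSCs, and 3 a higher one, which were Twist2 (0.138 and 0.0886 TPM), Meox2 (0.155 and 0.077 TPM) and S100a4 (88.6 and 74.9 TPM). As a percent of the PSC library of the same culture, Pdgfrb in organoids was at 0 to 0.0219% with KO and 0.0276 to 0.0808% with WT PSCs, and Dcn at 0 to 0.0211% with KO and 0.0074 to 0.0957% with WT PSCs. Pdgfra (0.053 to 0.267% and 0.106 to 0.71%), Vim (0.0053 to 0.384% and 0.03 to 0.608%) and Sparc (0.0102 to 0.0459% and 0.0254 to 0.187%) overlapped, as Dcn did. Pdgfrb alone did not, at mean levels of only 0.0109 TPM with KO and 0.0578 TPM with WT PSCs. The 16 fibroblast markers summed to 56.2 to 147.8 TPM with KO and 57.8 to 97.8 TPM with WT PSCs, and without S100a4 to 0.70 to 7.14 TPM with KO and 1.77 to 11.4 TPM with WT PSCs. From 1 to 7 of the 16 were at 0 in a library with KO PSCs, and 0 to 3 in a library with WT PSCs. Of 3 markers tested 1 was lower, and their part in the result was not tested.

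The fourth chain was Col7a1, which organoids express above PSCs. With T69A it was at 1.19 TPM with B4, against 5.68 TPM with Rosa. With T6-LOH it was at 8.64 and 9.63 TPM with A3 and B4, against 12.7 TPM with PSC4 Rosa, and at 8.43 and 7.37 TPM with C5 and D4, against 23.4 TPM with PSC5 Rosa. With T12-LOH it was at 2.63 and 2.94 TPM with A3 and B4, against 3.61 TPM with Rosa. Col7a1 was thus lower with KO PSCs in all 7 pairs (log2 -1.33 ± 0.30, adjusted p = 0.0387), and it passed in 5 of 18 alternatives. The 7 pairs share 4 WT libraries and are not independent. The share of all genes that were lower in all 7 pairs was not counted. The count of 4 fell to 0 without the T69A cultures, without either T69A library, without the PSC5 Rosa culture, or without the co-culture block. The major organoid chains Col18a1 (-0.14 ± 0.07, adjusted p = 0.222), Col4a1 and Col4a2 did not pass.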

How the data were processed

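RNA of 12 PSC and 11 organoid fractions was quantified per transcript by the authors with Salmon 1.9.0 on GRCm39, per the submitters' processing notes. Each deposited table holds estimated counts (expected counts that need not be whole), TPM and an effective length for 117135 transcripts. Here they were summed per gene through GENCODE M21 names (115973 transcripts matched, 99.0%), and summed estimated counts were rounded. TPM served for levels and the rounded counts for tests. Depth was 21823084 to 34828131 counts per library, and intervals and floors cover counting error only.

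Genes were filtered with filterByExpr and tested with edgeR 4.0.16 (TMM, robust quasi-likelihood, R 4.3.3), with Benjamini-Hochberg adjustment over all genes tested and a threshold of 0.05. Alternatives were DESeq2 1.42.0, other size factors, no filter, a transcript length offset, other blocks (limma 3.58.1) and leaving out each library. The fits were checked on simulated data. In a comparison, every collagen gene past the threshold was named (above 20, the 10 largest fold changes per direction), and up to 4 genes of each other list by smallest p. The rule also allowed for up to 3 chains per class with the highest TPM, which the text gives mainly by level. Other collagen genes given with values, such as those under 0.05 before adjustment, were chosen after their values were seen. The members and lists were chosen with earlier results of these data known.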

Additional observations from a re-analysis of the deposited data

Results flagged for a closer look

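In 94 checks of a gene or class sum within a group of 4 to 8 libraries, 11 had a highest library that stood apart from the nearest of the others by more than Dixon's 95% limit, which chance gives in about 1 of 20 groups. Among KO PSCs, Col11a1 stood apart in D4 at 55.0 TPM (next 24.8), Col24a1 in B4 with T69A at 9.67 TPM (next 3.84), and Col6a4 in C5 at 5.97 TPM (next 2.68). In A3 with T6-LOH, Col10a1 was at 6.09 TPM (next 2.09) and Col14a1 at 3.85 TPM (next 1.76). Among WT PSCs, Col4a6 stood apart in PSC5 Rosa at 3.15 TPM (next 0.555). It was at 3.6 TPM in D4 of the same parent.

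Among organoids with KO PSCs, the T69A library with B4 stood apart in Col4a1 at 138 TPM (next 39.6), in Col4a2 at 111 TPM (next 23.6) and in the network class sum at 258 TPM (next 69.2). It is the 1 T69A library of that group, and the T69A library with Rosa held Col4a1 at 123 TPM. Among organoids with WT PSCs, the T12-LOH library stood apart in Col8a1 at 5.21 TPM (next 0.66) and in the transmembrane class sum at 0.23 TPM (next 0.0375), and it is the 1 T12-LOH library of that group.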

How the results depend on the processing

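Of 114 results that passed, tested in 1327 alternative settings, 1114 kept direction and side of the threshold, 213 kept direction but no longer passed, and 0 changed direction. Of 26 that did not pass, 14 of 379 settings passed. In KO against WT PSCs, Col1a2 changed direction to 0.33 (log2) without the PSC5 Rosa library (-2.49 to 0.33 over the libraries left out in turn, adjusted p 0.617 to 1 over all alternatives). There DESeq2 called 2 chains, and 3.66% of all genes, where edgeR called 0 chains. In organoids with KO against WT PSCs, the 4 calls became 1 with a transcript length offset, 0 without the co-culture block, 0 without the T69A co-culture and 8 with the PSC line as a random effect. Leaving out single libraries gave 0 to 7. In PSC5 against PSC4, DESeq2 called 5 chains, and 4.18% of all genes, where edgeR called 0 chains. In PSC4 with T69A against T6-LOH, the 2 calls became 1 with the length offset, 8 in DESeq2 (which called 7.88% of all genes), and 0 to 4 without single libraries. The leave-one-out ranges were 1 to 7 for A3 and 12 to 24 for B4 against PSC4 Rosa, 13 to 22 for T12-LOH against T6-LOH in PSC4, and 8 to 16 for T12-LOH against T6-LOH organoids. The cause was not tested. Libraries of 1 line share that line, and PSC5 has 1 WT library. Fits were blocked by the shared culture, organoid partner or PSC line that the labels name, and the fraction comparison without its culture block gave 27 calls in place of 28.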
